A study of Mus musculus with 32 samples.

Results

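This account covers the potassium channel genes, taken as every protein-coding gene whose GRCm38 symbol is Kcn followed by further letters and a number. The rule found 93 genes among 51912 identifiers, of which 21870 were protein coding, and 5 non-coding genes with matching symbols (Kcnmb4os1, Kcnmb4os2, Kcnd3os, Kcnab3os and Kcnq1ot1) were left out. By class, 30 encode voltage-gated pore subunits, 10 silent voltage-gated subunits, 8 calcium- or sodium-activated channels, 15 inward rectifiers, 14 two-pore domain channels and 16 auxiliary subunits. Symbols and positions came from GENCODE M21 (GRCm38). In 28 members an exon overlaps one of another gene, mostly on the opposite strand (Kcnd3 with Kcnd3os and Kcnq1 with Kcnq1ot1, and also Kcnip4, Kcnj6, Kcnj3, Kcnk3, Kcnt2 and Kcnma1), and since no strand-marking step is stated, reads of such partners cannot be told apart.

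Nuclear RNA was sequenced from C57BL/6 mice kept specific pathogen free at the University of Bern or the Francis Crick Institute. All mice had received AAV9-CaMKII-EGFPKASH intravenously 5 weeks earlier, so that EGFP sits at the nuclear envelope of cells in which the virus and the CaMKII promoter were active. The longitudinal muscle with its myenteric plexus was taken from colon or small intestine (SI), and EGFP+ nuclei (labelled neuronal) and EGFP- nuclei (labelled non-neuronal) were sorted. Facility, segment (Col or Si) and sort (Pos or Neg) gave 8 groups of 4 libraries, named for instance Bern_ColPos 1. The ages of the mice, and whether animals were pooled or gave several libraries, are not given in the sources used here, so p-values measure the spread between these libraries.

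Potassium channels let potassium leave the cell and so set the resting potential, end action potentials and space them apart. Voltage-gated channels open on depolarisation, calcium- and sodium-activated channels open when those ions enter, inward rectifiers answer to G proteins or to ATP, and two-pore channels carry a standing leak. In the gut wall, the slow after-hyperpolarisation of sensory-type myenteric neurons is attributed mainly to the calcium-activated IK channel (Kcnn4), SK channels carry the inhibitory purinergic response of PDGFRA cells, BK channels brake smooth muscle, and ERG and Kv4 channels shape slow waves. A nuclear level is not a level of protein or of current.

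Total counts were 2394481 to 4618379 per library in Bern (16 libraries) and 3788120 to 8350833 at the Crick (16 libraries), and 49 to 77 members had a count in each Bern library against 75 to 89 in each Crick library. Levels are CPM, the usual depth-scaled count unit, after scaling between libraries, and fold changes are log2 ± SE from edgeR's quasi-likelihood test with a p-value adjusted over all genes tested (threshold 0.05). A count of 0 in a whole group allows up to 0.127 to 0.238 CPM, the level of 3 counts over its libraries, for counting error only. The 10 neuronal marker genes summed to 1841 to 4590 CPM in Pos libraries and 41.2 to 1410 CPM in Neg libraries, the highest Neg sums being in Bern_ColNeg 1 (1410 CPM) and 2 (1261 CPM). Interstitial cells of Cajal (ICC), pacemaker cells of the gut, had marker sums of 659 to 2318 CPM in SiPos libraries against 263 to 469 CPM in ColPos libraries, so the SI neuronal sort carried ICC transcripts (Kit, Ano1, Prkcq and Etv1 were all lower in colon). In these bulk samples fewer cells of a type and less RNA per cell cannot be told apart. 6 libraries named as doubtful in an earlier analysis of these data (Bern_ColNeg 1 and 2, Bern_SiNeg 1, Crick_ColNeg 3, Crick_SiNeg 2 and Crick_SiPos 2) were left out in a further fit.

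Most potassium channel genes differed between the sorts, and the voltage-gated pore genes were mainly on the neuronal side. Of 77 members tested, 39 were higher and 19 lower in neuronal nuclei (75.3%), where 43.5% of all 21521 genes tested passed, 21.9% higher and 21.6% lower. Without the 6 libraries in doubt 40 were higher and 16 lower. By class, with all libraries, voltage-gated genes had 19 higher and 4 lower of 28 tested, and inward rectifiers 6 and 2 of 12. Silent genes had 4 and 2 of 7, calcium- or sodium-activated genes 4 and 2 of 8, and two-pore genes 3 and 2 of 8. Auxiliary genes leaned the other way, with 3 higher and 7 lower of 14. The median log2 fold change was 1.08 over the tested members and -0.01 over all genes. In 15 members the libraries of the sorts did not overlap in any of the 4 strata of facility and segment, a property shared by 5.81% of all genes tested. The 16 members not tested were too low in every group: Kcna7, Kcna10, Kcne1, Kcne2, Kcnj1, Kcnj4, Kcnj14, Kcnk4, Kcnk7, Kcnk12, Kcnk15, Kcnk16, Kcnk18, Kcns1, Kcns2 and Kcnv2. Low members enter the test only through the groups in which they are high, so these counts describe the tested genes. For Kcnk9 and Kcng2 the sort difference could not be fitted. Mitochondrial transcripts made up 0.423% to 15.99% of the counts in Pos libraries and 3.49% to 23.6% in Neg libraries, with lower shares in Pos in every stratum except Crick SI, where the sorts overlapped, and the part of this in the sort differences was not tested.

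**Figure D1:**
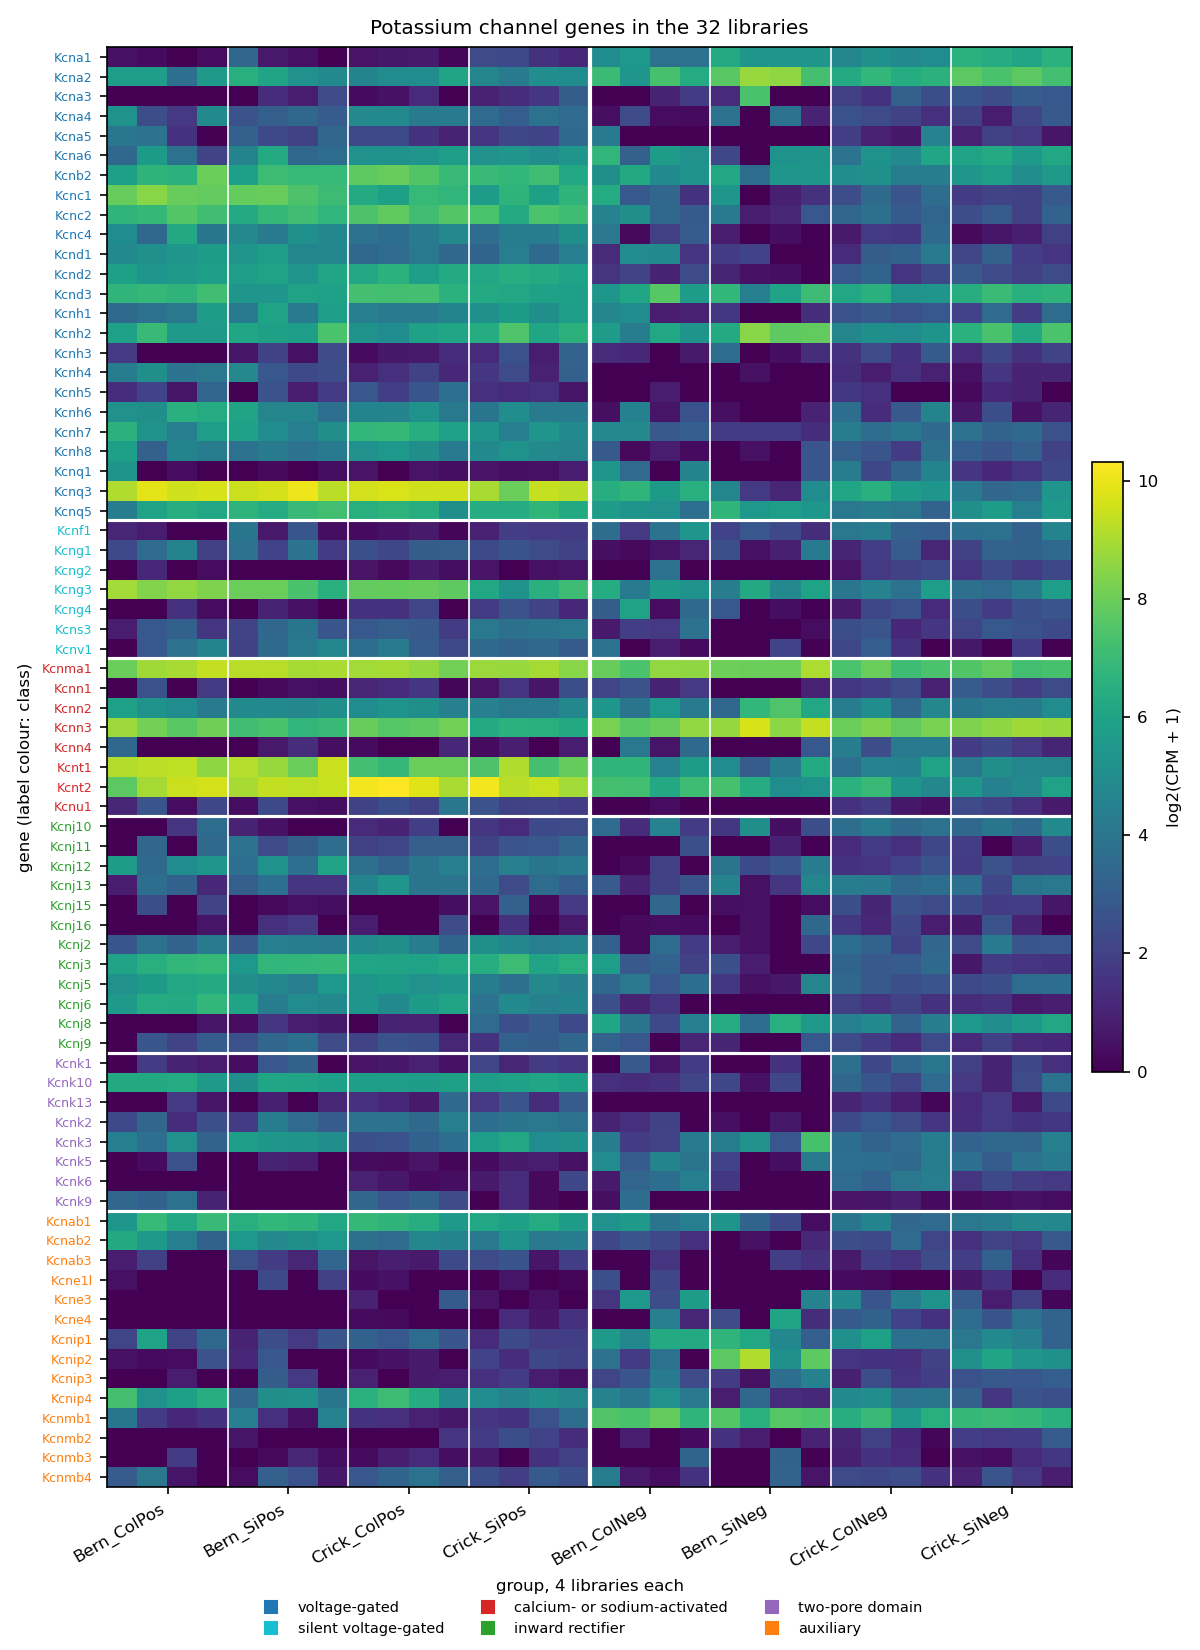
Level of 73 members with a mean of at least 2 CPM in any group (rows, label colour by class) in each of the 32 libraries (columns, 4 per group); colour is log2(CPM + 1). Kcnq3, Kcnt1 and Kcnt2 are among the brightest rows in the 16 Pos libraries on the left, and Kcnn3, Kcnma1 and Kcnmb1 are bright in the 16 Neg libraries on the right.

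**Figure D2:**
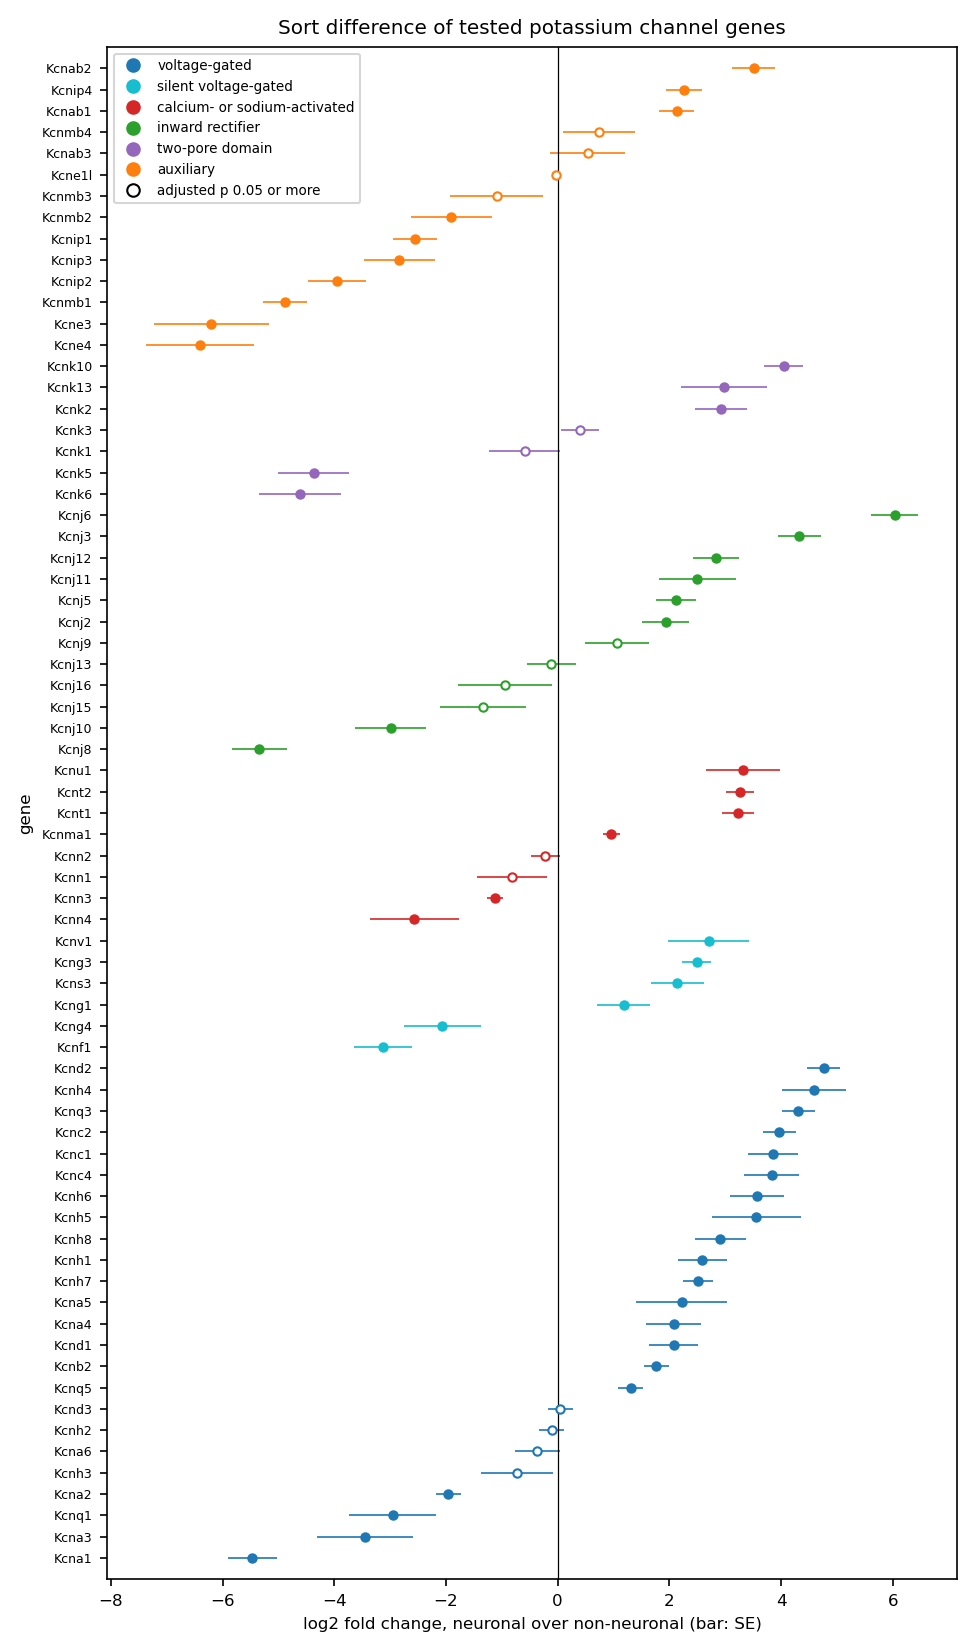
Log2 fold change of neuronal over non-neuronal nuclei (x axis, bar: SE) for 71 members (y axis), grouped by class and ordered within it; filled points passed adjusted p 0.05 and open points did not. Kcnj6 lies farthest right at 6.03 and Kcne4 farthest left at -6.40.

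An M-current gene was among the most abundant members. Kv7 channels carry this slow current, which holds neurons back from repetitive firing, and Kcnq3 encodes a subunit of its neuronal form. Per kilobase of exon, which allows levels of different genes to be compared, Kcnq3 had 16.7 to 72.8 CPM in the 16 neuronal libraries (median 51.1). Kcnq3 rose by 4.31 ± 0.29 (adjusted p = 7.11e-15), without overlap between sorts in any stratum. Kcnq5 rose less (1.31 ± 0.22), with overlapping libraries. Kcnq1, whose product works with KCNE subunits in epithelia, was lower in neuronal nuclei (-2.95 ± 0.78, adjusted p = 0.00197), a difference that could not be fitted without Bern_SiNeg 4.

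Kv3 genes, which encode fast delayed rectifiers that permit short action potentials, were higher in neuronal nuclei. Kcnc2 rose by 3.97 ± 0.30, Kcnc1 by 3.85 ± 0.45 and Kcnc4 by 3.83 ± 0.49. The mean level of Kcnc1 was 158 CPM in the neuronal sort against 11.8 CPM in the other. Among the 8 ether-a-go-go genes 6 rose (Kcnh1, Kcnh4, Kcnh5, Kcnh6, Kcnh7 and Kcnh8), led by Kcnh4 at 4.59 ± 0.57. Kcnh2, the ERG channel that shapes slow waves and smooth muscle tone, averaged 76.5 CPM in the neuronal sort, 105 CPM in the non-neuronal sort, and did not pass (-0.11 ± 0.23, adjusted p = 0.759).

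Kv4 channels carry the fast A-type current, and here their genes split by sort. Kcnd2 (Kv4.2) had 57.3, 42.3, 47.2 and 54.4 CPM in Bern_ColPos, 52.5, 61.0, 40.5 and 67.7 in Bern_SiPos, 71.5, 95.2, 53.1 and 77.6 in Crick_ColPos, and 70.9, 83.8, 78.1 and 61.4 in Crick_SiPos. In the non-neuronal groups it had 2.04, 3.33, 1.03 and 4.32 CPM (Bern_ColNeg), 1.08, 0.396, 0.294 and 0 (Bern_SiNeg), 6.16, 9.02, 2.02 and 3.87 (Crick_ColNeg), and 6.29, 4.12, 2.84 and 4.31 (Crick_SiNeg). Every neuronal library was above every non-neuronal one, with a log2 fold change of 4.76 ± 0.29 (adjusted p = 4.44e-16). Kcnd1 rose by 2.08 ± 0.44. Kcnd3 (Kv4.3), by contrast, had similar means of 92.4 and 83.7 CPM over all groups and did not pass (0.05 ± 0.22, adjusted p = 0.902). Its means went opposite ways in the segments. In colon they were 117 (neuronal) against 89.7 CPM in Bern and 136 against 60.55 at the Crick. In SI they were 50.5 against 82.2 CPM in Bern and 66.15 against 102 at the Crick. In both segments the sorts were apart at the Crick and overlapped in Bern. The calcium-binding KChIP subunits that join Kv4 pores also split: Kcnip4 rose by 2.26 ± 0.32, while Kcnip2 (-3.95 ± 0.52), Kcnip3 (-2.84 ± 0.64) and Kcnip1 (-2.56 ± 0.40) were lower. Dpp6, the other kind of Kv4 subunit and no member, rose by 4.16 ± 0.28 to 322 CPM, and its relative Dpp10 did not pass (-0.57 ± 0.44, adjusted p = 0.309).

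Kv1 genes, which encode low-threshold channels of axons, were split between the sorts, with 2 higher and 3 lower in neuronal nuclei among 6 tested. Kcna1 averaged 1.54 CPM in the neuronal sort against 47.8 CPM in the non-neuronal sort (-5.47 ± 0.44, adjusted p = 5.07e-13, no overlap in any stratum). Kcna2 (-1.96 ± 0.22, 39.9 against 168 CPM) and Kcna3 (-3.45 ± 0.86) were lower too, Kcna4 (2.08 ± 0.49) and Kcna5 (2.22 ± 0.81) were higher, and Kcna6 did not pass. Kcna3 had 163.9 CPM in Bern_SiNeg 2 and at most 7.89 CPM in any other non-neuronal library, and without that library its difference was -1.84 (adjusted p = 0.0337). Kcna5 stood at 4.06 without Bern_ColNeg 1. Its means were 5.41 against 3.20 CPM, and it had no count in Bern_SiNeg, so its size is uncertain. In Crick colon alone its neuronal mean was the lower one (2.72 against 6.67 CPM). The Kv beta subunit genes Kcnab2 (3.51 ± 0.38) and Kcnab1 (2.13 ± 0.31), whose products bind Kv1 pores, rose in neuronal nuclei.

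Kv2 channels are delayed rectifiers, and silent subunits act only by joining them. Kcnb2 rose by 1.77 ± 0.23 to 134 CPM. Of the silent genes Kcng3 (Kv6.3) stood out, with 11.2 to 139 CPM per kilobase in neuronal libraries (median 68.2), the second highest mean of all members. It rose by 2.49 ± 0.26 (adjusted p = 3.78e-10). Kcnv1 (2.70 ± 0.72), Kcns3 (2.14 ± 0.48) and Kcng1 (1.18 ± 0.47) were also higher, and Kcnf1 (-3.12 ± 0.52) and Kcng4 (-2.06 ± 0.69) were lower. Kcng1 lost its call in 18 of 32 fits that left out 1 library, and Kcng4 lost it without Bern_ColNeg 2 or Bern_SiNeg 1 (adjusted p up to 0.278).

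Of the sodium-activated channel genes, Kcnt2 had the highest mean level per kilobase of all members in the neuronal sort and Kcnt1 the fourth. Kcnt2 (Slick) had 29.97 to 184 CPM per kilobase in the neuronal libraries (median 98.0), and Kcnt1 (Slack) 12.3 to 74.6 (median 32.8). Kcnt2 rose by 3.27 ± 0.25 and Kcnt1 by 3.23 ± 0.28, without overlap in any stratum. Kcnu1, a pH-gated relative known from sperm, rose by 3.32 ± 0.66 but reached only 3.48 CPM.

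Among calcium-activated channel genes, the BK pore gene was higher in neuronal nuclei, while the beta subunit genes Kcnmb1 and Kcnmb2 were lower. Kcnma1, the single BK pore gene, was high in both sorts, with means of 461 CPM (neuronal) against 245 CPM (non-neuronal; 0.96 ± 0.15, adjusted p = 2.75e-06). Kcnmb1, the smooth muscle BK beta subunit, had 108 to 236 CPM in Bern_ColNeg, 95.8 to 189 in Bern_SiNeg, 46.3 to 126 in Crick_ColNeg and 93.5 to 128 in Crick_SiNeg. In neuronal groups it had 1.27 to 14.9, 0.386 to 22.7, 0.574 to 1.88 and 1.83 to 11.7 CPM in the same order, so no library overlapped within a stratum (-4.87 ± 0.40, adjusted p = 7.74e-13). Kcnmb2 was lower (-1.91 ± 0.73) and lost its call without Bern_ColNeg 2, Crick_ColNeg 2 or Crick_SiNeg 4 (adjusted p up to 0.113). Kcnmb3 and Kcnmb4 did not pass. Among BK gamma subunit genes, outside the members, Lrrc55 (2.17 ± 0.60, 9.49 CPM) and Lrrc26 (2.39 ± 0.73, 3.86 CPM) were higher in neuronal nuclei, and Lrrc38 and Lrrc52 were too low to test. Among SK genes Kcnn3 (SK3) was lower in neuronal nuclei over all groups (187 against 382 CPM, -1.13 ± 0.14, adjusted p = 2.91e-08). Its neuronal against non-neuronal means were 134 against 570 CPM in Bern SI and 85.0 against 392.5 in Crick SI. In colon they were 300 against 288 CPM in Bern and 231 against 276.5 at the Crick, and the sorts overlapped at both facilities. Kcnn4 was lower (-2.57 ± 0.80), and Kcnn2 (29.3 against 41.1 CPM) and Kcnn1 did not pass. The Kcnn4 difference could not be fitted without Bern_SiNeg 4, stood at -4.19 without Bern_ColPos 1, and did not pass with the replicate number as a block (adjusted p = 0.0888).

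Inward rectifiers of the GIRK type, opened by G proteins downstream of opioid and other inhibitory receptors, were neuronal. Kcnj6 (GIRK2) had 45.5, 79.9, 76.9 and 112 CPM in Bern_ColPos, 63.3, 19.6, 30.5 and 27.3 in Bern_SiPos, 42.0, 28.7, 47.8 and 63.1 in Crick_ColPos, and 14.3, 29.4, 21.6 and 24.3 in Crick_SiPos. It had 4.77, 1.04, 2.05 and 0 CPM in Bern_ColNeg, no count in all 4 libraries of Bern_SiNeg, 2.86, 2.02, 3.03 and 1.76 in Crick_ColNeg, and 1.53, 1.80, 0.609 and 0.807 in Crick_SiNeg. Every neuronal library was above every non-neuronal one. The fitted value was 6.03 ± 0.42 (adjusted p = 7.60e-14), and in Bern SI, where one side had no count, the neuronal mean was at least 148-fold higher than the level of 3 counts over the group. Kcnj3 (GIRK1) rose by 4.33 ± 0.38 and Kcnj5 (GIRK4) by 2.13 ± 0.36, while Kcnj9 (GIRK3) did not pass (1.06 ± 0.57, adjusted p = 0.134). Rgs7 (2.67 ± 0.36) and Gnb5 (0.98 ± 0.23), whose products speed the closing of GIRK channels, were higher too, but Rgs7bp was lower (-1.70 ± 0.35).

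The genes of ATP-sensitive (KATP) channels separated by subunit pair. Such a channel needs a pore and a sulfonylurea receptor: Kcnj8 with Abcc9 is the vascular and smooth muscle pair, and Kcnj11 with Abcc8 the neuronal and beta-cell pair. Kcnj8 had 68.2, 14.6, 3.85 and 20.9 CPM in Bern_ColNeg, 81.2, 11.9, 86.9 and 45.2 in Bern_SiNeg, 20.7, 28.5, 8.50 and 19.8 in Crick_ColNeg, and 44.0, 32.4, 45.2 and 69.7 in Crick_SiNeg. Its neuronal values were 0, 0, 0 and 0.518 CPM in Bern_ColPos, 0.258, 2.12, 0.772 and 0.581 in Bern_SiPos, 0, 1.00, 0.932 and 0 in Crick_ColPos, and 11.1, 4.66, 6.75 and 3.86 in Crick_SiPos. No library overlapped within a stratum, and Kcnj8 was lower in neuronal nuclei by -5.34 ± 0.49 (adjusted p = 1.72e-11), as was Abcc9 by -4.66 ± 0.29 (27.3 against 484 CPM). Kcnj11 rose by 2.50 ± 0.69 from low counts (6.47 against 1.43 CPM), with libraries that overlapped, and Abcc8 rose by 4.15 ± 0.45 (248 against 15.3 CPM). Of the rest, Kcnj12 (2.83 ± 0.41) and Kcnj2 (1.93 ± 0.42), which encode classical inward rectifiers, were higher in neuronal nuclei. Kcnj10, the potassium-buffering channel of glia, was lower (-2.99 ± 0.64, 1.99 against 12.4 CPM), and all 6 glial marker genes were lower in that sort as well.

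**Figure D3:**
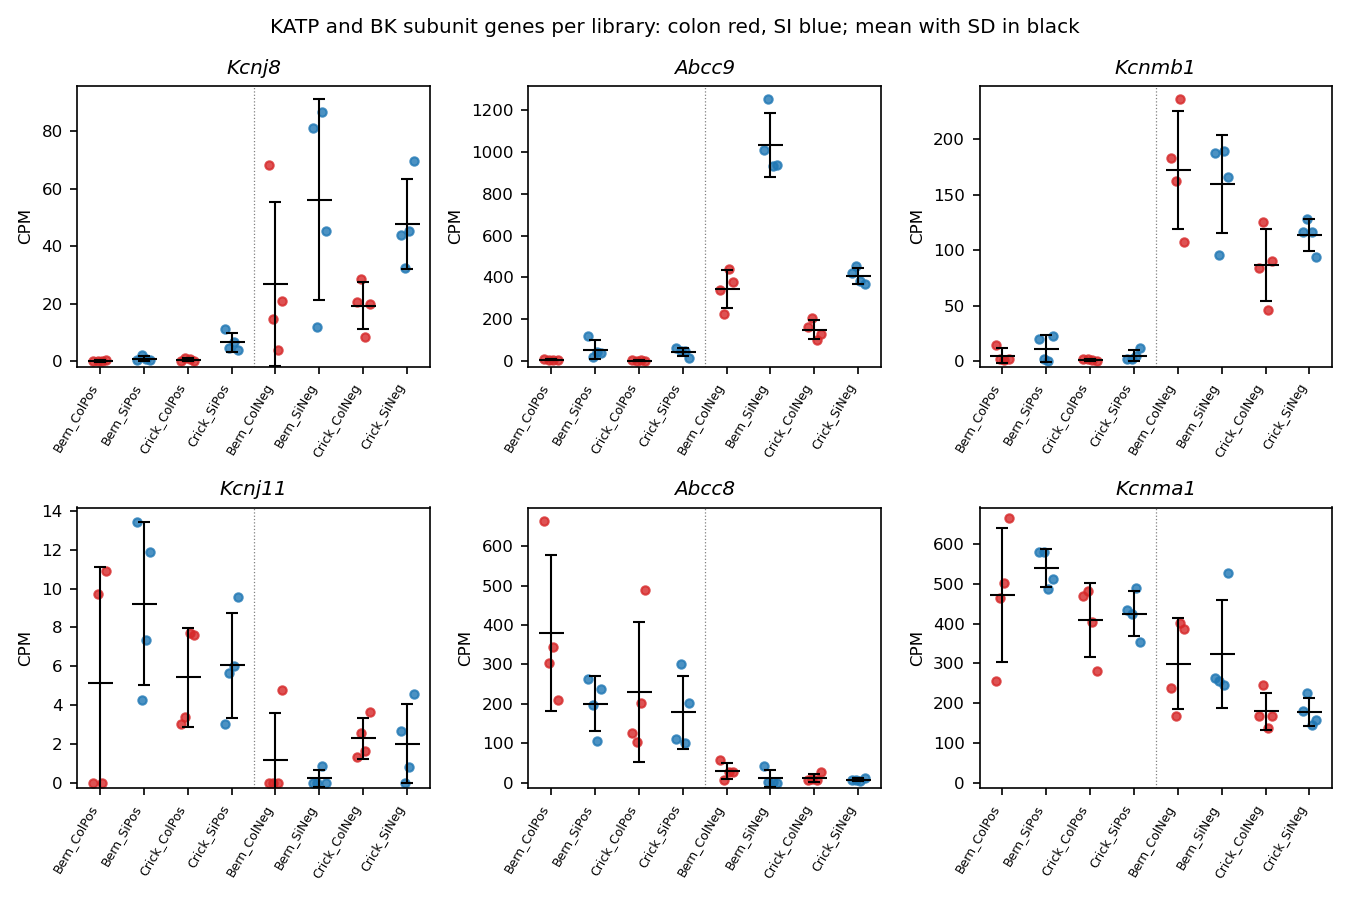
Level in CPM (y axes, linear, from 0) of 4 KATP and 2 BK subunit genes in the 8 groups (x axes); points are libraries (colon red, SI blue), black bars the mean with SD, cut off at 0, and the dotted line parts Pos from Neg groups. Kcnj8, Abcc9 and Kcnmb1 are high right of the line, Abcc8 and Kcnj11 left of it, and Kcnma1 on both sides.

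Two-pore leak channel genes were split as well. Kcnk10 (TREK-2) rose by 4.05 ± 0.35 to 59.1 CPM without overlap in any stratum, and Kcnk2 (TREK-1, 2.92 ± 0.46) and Kcnk13 (2.98 ± 0.77) rose at low levels. Kcnk13 had no count in Bern_ColNeg or Bern_SiNeg, so its size is uncertain, and in limma-voom it was 1.42 (adjusted p = 0.017). Kcnk5 (-4.37 ± 0.63) and Kcnk6 (-4.61 ± 0.74) were lower, the latter fitted only with Bern_SiNeg 1. The KCNE subunit genes Kcne4 (-6.40 ± 0.97) and Kcne3 (-6.20 ± 1.03) had the largest fitted declines in edgeR. Neither had a count in Bern_ColPos or Bern_SiPos, so these sizes are uncertain. In limma-voom they were -3.87 and -4.18, smaller than the -5.72 of Kcna1. Kcne4 had 64.5 CPM in Bern_SiNeg 3 and at most 4.31 CPM in the other libraries of that group. The Kcne3 difference could not be fitted without Bern_SiNeg 4. Several members lower in neuronal nuclei (Kcne3, Kcnq1, Kcnn4, Kcnk5, Kcnk6) are known from epithelia. The epithelial marker sum was 120 to 11480 CPM in non-neuronal and 9.39 to 53.1 CPM in neuronal libraries, and its part in these differences was not tested.

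Of 26 further genes of potassium channel complexes, 14 were higher and 3 lower among the 23 tested, with a median of 0.83. Of all 21521 genes tested 21.9% were higher and 21.6% lower. Beyond those named, Cntn2 (4.05 ± 0.52), Cntnap2 (2.84 ± 0.33), Lgi1 (3.99 ± 0.31) and Adam22 (1.46 ± 0.16), whose products gather Kv1 channels along axons, rose in neuronal nuclei although Kcna1 and Kcna2 were lower there. Ank3, the anchor of Kv7 channels at the axon start, rose by 0.59 ± 0.13.

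Within the neuronal nuclei the segments differed in a smaller set. Of 60 members tested, 7 were higher and 3 lower in colon than in SI (16.7%, against 5.51% of all 17419 genes, 1.97% higher and 3.54% lower). The higher genes were Kcnk9, Kcnip4, Kcnn3, Kcng3, Kcnd3, Kcnj6 and Kcnj5, and the lower genes Kcnj8, Kcnf1 and Kcnk3. Without the 6 libraries in doubt 6 were higher and 1 lower. The median log2 difference of the tested members was -0.07, against -0.01 for all genes. In 4 genes (Kcnn3, Kcnd3, Kcng3 and Kcnk9) the segments did not overlap at either facility, as in 2.15% of all genes. Low members entered this test too only through the groups in which they were high, as Kcnk9 did through colon. Within Bern alone 4 members passed, all higher (4.17% of all genes passed, 1.31% higher and 2.86% lower), and within Crick 2 were higher and 1 lower (0.913% of all genes, 0.333% higher and 0.58% lower). Mitochondrial shares were 0.423% to 0.598% in Bern_ColPos against 2.75% to 6.82% in Bern_SiPos, and 0.826% to 1.39% in Crick_ColPos against 2.76% to 15.99% in Crick_SiPos. The segments did not overlap in this share at either facility, and its part in the segment differences was not tested.

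Kcnn3, the gene of the SK3 channel, had 442, 280, 204 and 271 CPM in Bern_ColPos against 139, 162, 108 and 126 in Bern_SiPos. At the Crick it had 241, 192, 216 and 276 CPM in ColPos against 78.7, 94.0, 90.9 and 76.5 in SiPos. Every colon library was above every SI library at the same facility, and the gene was higher in colon by 1.25 ± 0.19 (adjusted p = 0.000141), with 1.12 ± 0.26 in Bern (0.0196, lost without Bern_ColPos 1 or Bern_SiPos 3 at up to 0.0609) and 1.39 ± 0.26 in Crick (0.00680). Its relative Kcnn2 was low, at 36.0 ± 16.5 CPM in Bern_ColPos and 29.1 ± 3.03 in Bern_SiPos (SD, n = 4 each), and at 31.2 ± 6.97 in Crick_ColPos and 20.8 ± 4.67 in Crick_SiPos. Its segment difference of 0.40 ± 0.28 did not pass (adjusted p = 0.498).

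Among the Kv4 complex genes Kcnd3, Kcnip4 and Dpp6 were higher in colon neuronal nuclei. Kcnd1, Kcnd2, Dpp10 and the other KChIP genes tested did not pass. Kcnip4 (values below) and Dpp6 also had higher means in colon in the non-neuronal sort. Those of Dpp6 were 71.7 and 28.1 CPM in Bern and Crick colon against 6.28 and 7.31 in SI. Kcnd3 had 105, 117, 104 and 143 CPM in Bern_ColPos against 41.1, 41.6, 60.2 and 59.0 in Bern_SiPos, and 154, 146, 148 and 95.7 in Crick_ColPos against 77.6, 72.3, 59.0 and 55.6 in Crick_SiPos. The groups did not overlap at either facility (1.07 ± 0.20, adjusted p = 0.00172), and within Crick alone the difference of 0.99 ± 0.28 did not pass (0.12). Kcnip4 (KChIP4) had 154, 35.7, 57.3 and 83.7 CPM in Bern_ColPos against 9.56, 33.6, 35.1 and 15.1 in Bern_SiPos, and 95.2, 133, 81.8 and 29.8 in Crick_ColPos against 31.6, 23.1, 33.0 and 24.6 in Crick_SiPos. Its groups were apart in Bern and overlapped at the Crick, where Crick_ColPos 4 lay among the SI values (1.67 ± 0.35, adjusted p = 0.005). Dpp6 was 423 ± 107 and 371 ± 26.1 CPM in Bern and Crick colon against 247 ± 64.7 and 244 ± 40.2 in SI (SD, n = 4 each; 0.64 ± 0.18, adjusted p = 0.0319). Kcnd2 did not pass (-0.11 ± 0.21, adjusted p = 0.835), so the Kv4 pore gene that differed was Kcnd3. The test of a difference between the genes was not run.

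Kcng3 had 465, 322, 395 and 314 CPM in Bern_ColPos against 246, 252, 160 and 93.3 in Bern_SiPos, and 226, 232, 239 and 217 in Crick_ColPos against 69.5, 37.4, 91.6 and 138 in Crick_SiPos. It was higher in colon by 1.18 ± 0.24 (adjusted p = 0.00328), by 1.40 ± 0.34 in Crick (0.0418, lost in 11 of 16 fits that left out 1 library, at up to 0.151) and by 0.95 ± 0.33 in Bern, which did not pass (0.108). The libraries did not overlap at either facility.

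Kcnk9, which encodes the acid-sensitive leak channel TASK-3, was close to absent from SI neuronal nuclei at this depth. It had 9.55, 8.26, 13.2 and 1.04 CPM in Bern_ColPos and no count in any of the 4 Bern_SiPos libraries, and 9.62, 6.01, 8.63 and 4.16 CPM in Crick_ColPos against 0, 1.33, 0.187 and 0 in Crick_SiPos. The Bern colon mean was at least 39.0-fold higher than the level of 3 counts over the Bern SI group, and at least 30.6-fold higher without Bern_ColPos 3. The test over both facilities gave adjusted p = 0.00100, and the test within Crick did not pass (4.05 ± 1.19, 0.153). Kcnk9 passed the low-count filter through its colon groups only, so its place among the tested genes depended on the values compared. Among non-neuronal libraries Bern_ColNeg 2, with 11.9 CPM, was the single one above 1 CPM.

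Kcnk3, the gene of the related leak channel TASK-1, went the other way. It had 21.0, 12.6, 36.5 and 8.55 CPM in Bern_ColPos against 54.0, 43.1, 39.0 and 31.96 in Bern_SiPos, and 4.69, 5.01, 8.16 and 12.05 in Crick_ColPos against 52.2, 72.2, 31.1 and 35.5 in Crick_SiPos. The segments were apart at the Crick and overlapped in Bern through Bern_ColPos 3, and the gene was lower in colon by -1.94 ± 0.34 (adjusted p = 0.00104; Crick -2.73 ± 0.50, 0.00491; Bern -1.15 ± 0.48, 0.178). ICC marker sums were 312 to 469 CPM in Bern_ColPos against 659 to 2318 in Bern_SiPos, and 263 to 373 in Crick_ColPos against 1187 to 1885 in Crick_SiPos. Kcnj8 (-3.19 ± 0.90, 0.307 against 3.76 CPM) and Kcnf1 (-3.04 ± 0.88, 0.419 against 3.79 CPM) were also lower in colon, and Abcc9 was lower with Kcnj8 (-3.42 ± 0.54, adjusted p = 0.000308). Pericyte marker sums were 34.5 to 85.5 CPM in ColPos and 95.6 to 200 CPM in SiPos libraries, with none of the 4 marker genes at 0, and the part of ICC or pericyte transcripts in these differences was not tested.

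The calls of Kcnj6 (1.04 ± 0.29), Kcnj5 (0.94 ± 0.27), Kcnj8 and Kcnf1 were near the threshold, with adjusted p of 0.0334, 0.0376, 0.0380 and 0.0437. Leaving out 1 library lost the call of Kcnj6 in 10 of 16 fits, of Kcnj5 in 11 of 16, of Kcnj8 in 12 of 16 and of Kcnf1 in 12 of the 15 fits that tested it, with adjusted p up to 0.127. The calls of Kcnn3, Kcnd3, Kcng3, Kcnip4, Kcnk9 and Kcnk3 over both facilities held in every fit run. Among the 23 partner genes tested 1 was higher in colon (Dpp6) and 3 lower: Abcc9, Cntnap2 (-0.96 ± 0.19, adjusted p = 0.00246) and Akap9 (-0.69 ± 0.19, 0.0360). Of all genes tested 1.97% were higher and 3.54% lower.

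**Figure D4:**
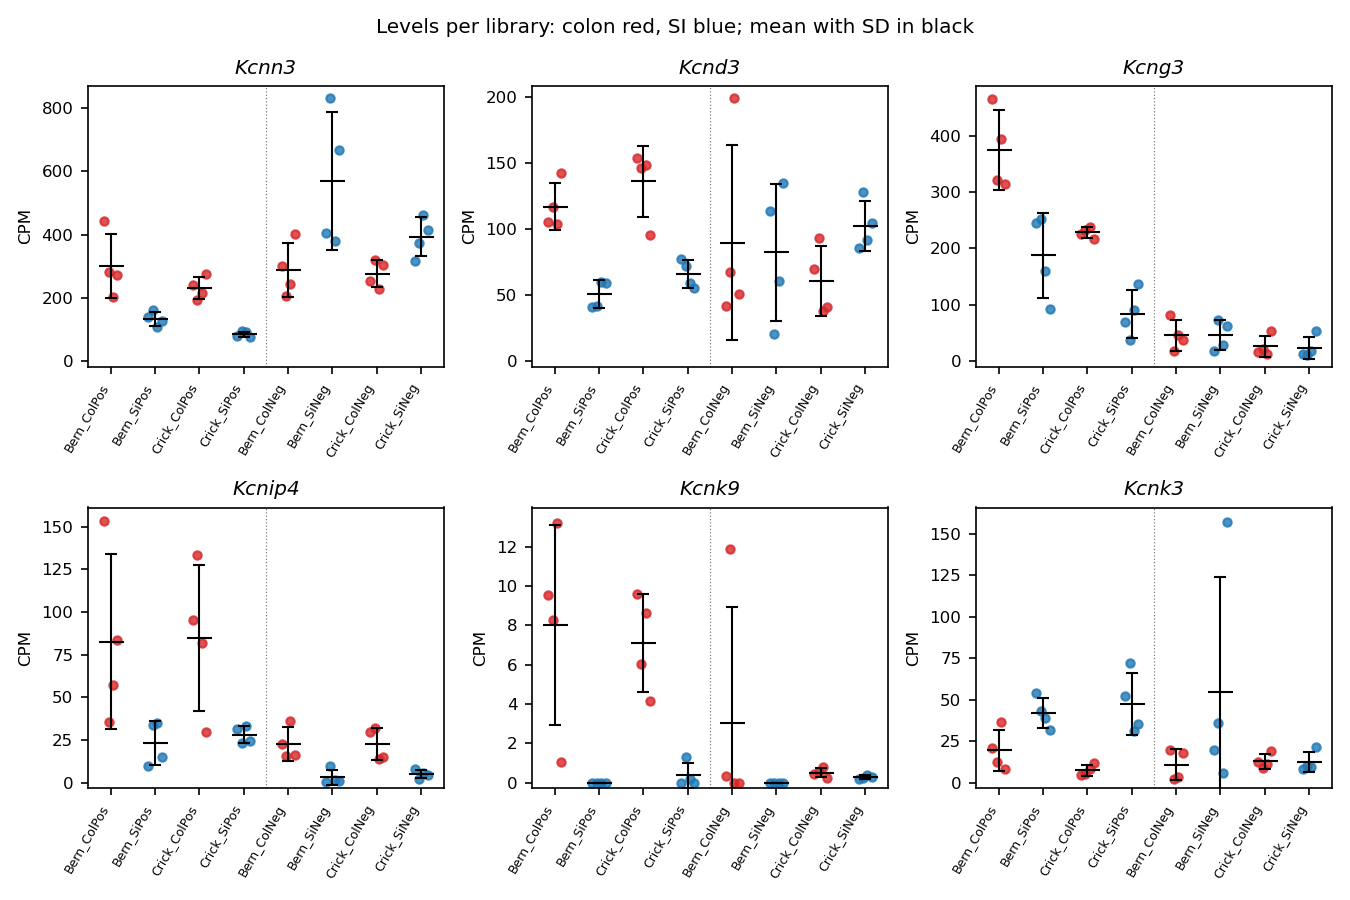
Level in CPM (y axes, linear, from 0) of 6 genes in the 8 groups (x axes); points are libraries (colon red, SI blue), black bars the mean with SD, cut off at 0, and the dotted line parts Pos from Neg groups. Left of the line colon lies above SI for Kcnn3, Kcnd3, Kcng3 and Kcnk9 without overlap at either facility, and below it for Kcnk3.

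The bases before the start of 3 of the 4 genes that separated the segments at both facilities are shown because a colon-high regulator, Ahr (84.4 to 192 CPM in Bern_ColPos and 51.5 to 72.6 in Crick_ColPos, against 1.74 to 24.8 and 6.60 to 12.2 in SI), binds with Arnt at sites that hold the core GCGTG. Sequences are from RefSeq (GRCm38.p6), 250 bases ending just before the listed start, 5′ to 3′ on the gene's strand, with GCGTG or its reverse complement CACGC in capitals. The table has an entry for 68 of the 93 members, in 93 windows, and Kcnk9 is not among them.
Kcnn3, chr3:89519914-89520163, plus strand: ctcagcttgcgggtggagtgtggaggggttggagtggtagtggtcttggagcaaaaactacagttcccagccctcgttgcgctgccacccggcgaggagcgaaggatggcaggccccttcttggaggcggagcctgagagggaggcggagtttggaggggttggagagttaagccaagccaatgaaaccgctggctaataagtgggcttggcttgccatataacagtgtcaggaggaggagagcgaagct
Kcnd3, chr3:105451640-105451889, plus strand: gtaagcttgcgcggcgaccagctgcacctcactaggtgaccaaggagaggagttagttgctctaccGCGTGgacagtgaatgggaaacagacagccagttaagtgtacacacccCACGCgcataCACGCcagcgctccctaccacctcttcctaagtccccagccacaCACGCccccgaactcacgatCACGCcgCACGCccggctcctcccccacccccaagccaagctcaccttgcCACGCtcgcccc
Kcng3, chr17:83631896-83632145, minus strand: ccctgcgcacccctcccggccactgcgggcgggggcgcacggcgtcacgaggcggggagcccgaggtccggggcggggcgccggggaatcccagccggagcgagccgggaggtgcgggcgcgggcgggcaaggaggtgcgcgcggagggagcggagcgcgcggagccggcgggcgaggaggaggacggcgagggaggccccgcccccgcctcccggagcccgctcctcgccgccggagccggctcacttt
The Kcnd3 window holds 7 matches that do not overlap each other, and the windows of Kcnn3 and Kcng3 hold none. At least 1 match was found in 28.2% of all 32851 windows of this length and in 26.9% of the members' windows, and 9 of all windows (0.0274%) held 7 or more. GC content was 58.8%, 62.8% and 82.4% in the order shown, against a median of 52.4%. The Kcnd3 start in GENCODE M21 lies downstream of the RefSeq start used here. The core was chosen after its matches had been seen, and the cut-off of 7 was the count of Kcnd3 itself, so its share is no test. A match is a run of letters and no sign of binding.

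7 other patterns were searched on both strands in the same windows. Shares of all windows and of the members' windows were 13.0% and 23.7% for the E-box CAGCTG, 12.4% and 3.23% for TATAAA, 1.60% and 1.08% for the octamer ATGCAAAT, 0.301% and 1.08% for the left part of the REST site, TTCAGCACC, and 0.304% and 1.08% for its right part, GGACAGCGC. The MEF2 site was found in 1.69% and 1.08%, and the CArG box in 1.47% of all windows and in 0 of the 93. Of the 3 windows shown, that of Kcnd3 held the E-box, and it overlaps no GCGTG match. Windows of 1 gene can overlap, and no test was run on these shares.

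Between the facilities few members differed in neuronal nuclei. In colon 4 were higher in Bern (3.09% of all genes passed, 1.89% higher and 1.19% lower), in SI 1 was (0.683%, 0.568% higher and 0.115% lower), and none was lower. In colon Kcnt1 had 556, 622, 633 and 376 CPM in Bern against 148, 117, 244 and 244 at the Crick (1.52 ± 0.38, adjusted p = 0.0339). Kcnc1 had 238, 358, 243 and 226 CPM against 77.2, 57.1, 120 and 109 (1.54 ± 0.32, 0.0149). Kcnh4 had 19.1, 33.8, 14.2 and 16.1 CPM against 0.938, 1.60, 3.03 and 1.29 (3.57 ± 0.83, 0.0244), and Kcnd1 rose by 1.67 ± 0.44 (0.0411). Each of these 4 colon calls was lost in some fits that left out 1 library: Kcnc1 without Crick_ColPos 1 or 2 (adjusted p up to 0.0809), Kcnh4 without Crick_ColPos 1, 2 or 3 (up to 0.104), and Kcnt1 in 6 and Kcnd1 in 10 of 16 fits. The neuronal marker sum was 3143 to 4379 CPM in Bern_ColPos against 2223 to 2624 in Crick_ColPos, and 4098 to 4590 in Bern_SiPos against 1841 to 2216 in Crick_SiPos. Its part in these differences was not tested. A difference of the segment effect between facilities was found in no member (0 of 60 in edgeR, DESeq2 and limma-voom; 3 with an unadjusted p under 0.05 in edgeR, namely Kcnk3, Kcnj10 and Kcnk9; 0.00574% of all genes passed).

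In non-neuronal nuclei 7 members were higher and 7 lower in colon among 69 tested (20.3%, against 9.32% of all 19164 genes, 5.79% higher and 3.54% lower), a split that became 9 and 5 with size factors of the RLE method. Without the 6 libraries in doubt 2 were higher and 4 lower. 5 of the 14 did not overlap between segments at either facility, as in 2.15% of all genes. The median log2 difference was 0.32 over tested members and 0.02 over all genes.

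The lower genes included channels known from muscle and pacemaker cells. Kcnip2 (KChIP2) had 13.3, 2.50, 13.6 and 0 CPM in Bern_ColNeg against 209, 542, 34.8 and 214 in Bern_SiNeg, and 1.98, 1.84, 1.62 and 2.93 in Crick_ColNeg against 35.5, 64.4, 40.6 and 35.5 in Crick_SiNeg. No library overlapped at either facility (-4.83 ± 0.62, adjusted p = 4.32e-05). Kcnh2 was 44.7 ± 21.0 and 32.1 ± 6.36 CPM in Bern and Crick colon against 220 ± 113 and 124 ± 47.1 in SI (SD, n = 4 each; -2.22 ± 0.33, adjusted p = 0.000193). Kcna2 (-1.34 ± 0.28), Kcna1 (-1.29 ± 0.32), Kcnq5 (-1.15 ± 0.36) and Kcnn3 (-0.84 ± 0.22) were lower by less. Smooth muscle marker sums were 8125 to 16540 CPM in Bern_ColNeg against 15200 to 22440 in Bern_SiNeg. At the Crick they were 5452 to 8833 in ColNeg against 6483 to 21120 in SiNeg. ICC marker sums were 359 to 500 CPM in Bern_ColNeg against 236.5 to 1146 in Bern_SiNeg. In Crick_ColNeg they were 315 to 463 against 240 to 826 in Crick_SiNeg, and none of the 4 ICC marker genes passed. The part of either cell type was not tested. Kcnq5 lost its call in 12 of 16 fits that left out 1 library.

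The higher genes were mostly ones that the sort comparison placed on the neuronal side, among them Kcnq3 (2.001 ± 0.51, adjusted p = 0.0160), Kcnip4 (2.36 ± 0.60), Kcnj3 (2.91 ± 0.87), Kcnc4 (3.13 ± 0.97) and Kcnh6 (3.35 ± 1.00), besides Kcnk6 (3.30 ± 0.86). Kcnip4 had 22.5, 15.4, 36.5 and 16.4 CPM in Bern_ColNeg against 0.719, 9.90, 1.47 and 1.28 in Bern_SiNeg, and 29.7, 32.2, 14.2 and 14.8 in Crick_ColNeg against 8.01, 2.06, 5.48 and 4.71 in Crick_SiNeg, with no overlap at either facility. Neuronal marker sums were also higher in ColNeg libraries, with 686 to 1410 CPM in Bern and 133 to 295 at the Crick, against 41.2 to 726 and 67.6 to 136 in SiNeg, and 4 of the 10 marker genes were higher in colon. Epithelial sums were 1443 to 11480 CPM in ColNeg and 120 to 853 in SiNeg. The part of either in these differences was not tested. Without the 6 libraries only Kcnk6 of the genes named here passed. Leaving out 1 library lost the edgeR call of Kcnc4 (adjusted p = 0.0445) in 12 of 16 fits. It lost those of Kcnh6 (0.037) and Kcnj3 (0.0365) in 9 of 16 each, and those of Kcnq3, Kcnip4 and Kcnk6 in 0.

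The facilities differed in 3 members of the non-neuronal nuclei, all higher in Bern, where 9.29% of all genes passed (4.35% higher and 4.94% lower). Among them were Kcnip2 (2.15 ± 0.56, adjusted p = 0.0178) and Kcnma1 (0.82 ± 0.24, 0.0342). Kcnma1 had 168 to 402 CPM in Bern_ColNeg and 246 to 528 in Bern_SiNeg, against 137 to 245 and 145 to 225 at the Crick, so the facilities overlapped in colon. Kcnip2 did not pass without the 6 libraries (0.0924) or in limma-voom (1.15, adjusted p = 0.414), and Kcnma1 lost its call in 8 of 16 fits that left out 1 library. Smooth muscle marker sums, given above, reached higher values in Bern in both segments, and 2 of the 8 marker genes were higher in Bern (median 0.65). Their part was not tested.

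The segment difference itself differed between the sorts in 10 members, 2 with a larger and 8 with a smaller colon value in neuronal nuclei (6.48% of all genes passed, 1.09% with a larger and 5.39% with a smaller value, and the median was -0.76 over tested members and -0.22 over all genes). Kcnn3 had opposite signs, higher in colon in neuronal nuclei and lower in non-neuronal nuclei, with a difference of 2.05 ± 0.29 (adjusted p = 1.74e-05). Its non-neuronal values were 300, 205, 243 and 402 CPM in Bern_ColNeg against 404, 831, 378 and 666 in Bern_SiNeg, and 254.4, 320, 228 and 304 in Crick_ColNeg against 318, 375, 463 and 415 in Crick_SiNeg. These segments overlapped at both facilities, and the decline (adjusted p = 0.0179) was lost without Crick_ColNeg 1 or 3 (up to 0.0541) and without the 6 libraries (0.117), while the difference between sorts held in every fit run. Sums of the fibroblast and PDGFRA cell markers were 804 to 1266 CPM in Bern_ColNeg against 1485 to 1786 in Bern_SiNeg, and 622 to 1104 in Crick_ColNeg against 1249 to 1504 in Crick_SiNeg, and their part was not tested. Kcnd3 also had a larger colon value in neuronal nuclei (1.44 ± 0.44, adjusted p = 0.0393), with 41.6, 67.4, 199 and 50.7 CPM in Bern_ColNeg, 114, 20.6, 60.4 and 134 in Bern_SiNeg, 69.7, 93.5, 38.0 and 41.0 in Crick_ColNeg and 85.8, 128, 91.3 and 104 in Crick_SiNeg. That call was lost in 19 of 32 fits that left out 1 library.

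The 8 with a smaller colon value in neuronal nuclei included Kcnf1 (-4.05 ± 1.01), Kcnk1 (-4.04 ± 1.27), Kcns3 (-3.74 ± 0.95), Kcnj3 (-3.22 ± 0.71), Kcnc4 (-3.18 ± 0.93), Kcnh1 (-2.73 ± 0.85) and Kcnq3 (-1.78 ± 0.52). Leaving out 1 library lost the call of Kcnk1 in 26 of 32 fits and of Kcnh1 in 23 of 32, and neither passed without the 6 libraries (Kcnk1 -3.57, adjusted p = 0.138; Kcnh1 -1.22, 0.518). Kcnc4 lost its call in 5 of 32 such fits and Kcnq3 in 2. Of these, Kcnq3, Kcnj3 and Kcnc4 were among the genes higher in colon in the non-neuronal sort, and their neuronal segment differences did not pass. Neuronal marker genes moved the same way, 4 of 10 with a smaller colon value in neuronal nuclei, and their part was not tested.

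**Figure D5:**
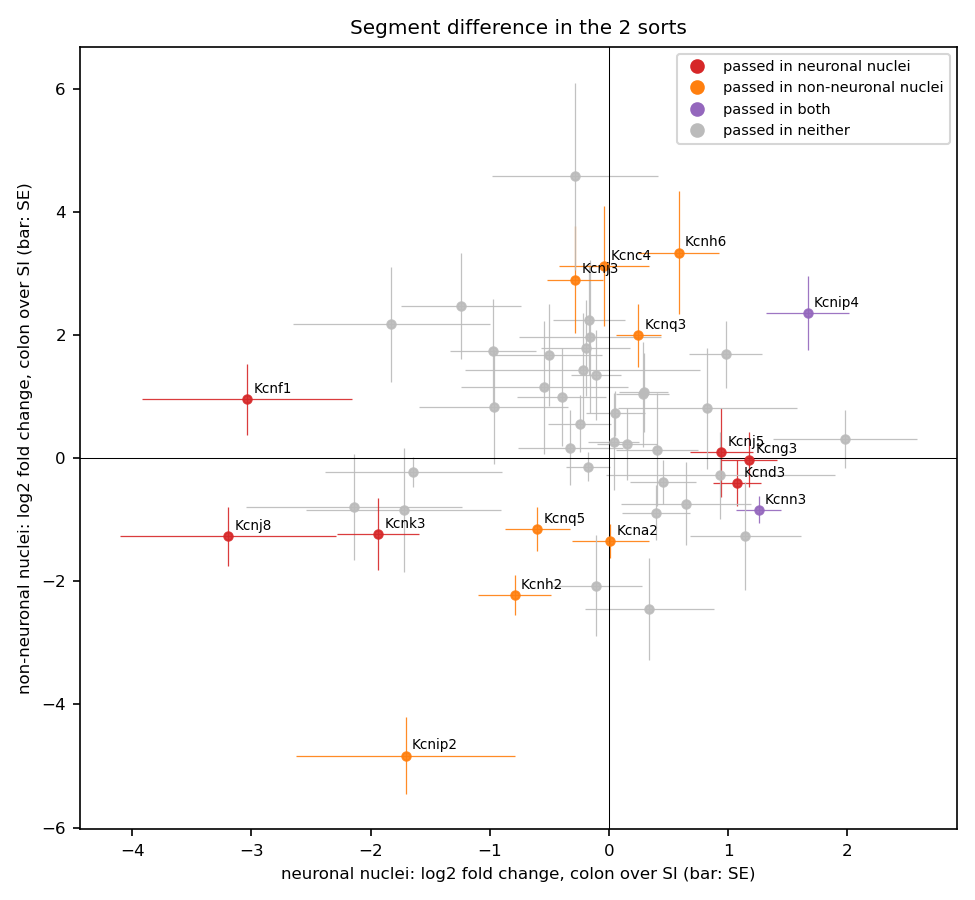
Log2 fold change of colon over SI in neuronal nuclei (x axis) against that in non-neuronal nuclei (y axis) for 51 members tested in both, with SE bars; colour shows where adjusted p was under 0.05. Kcnn3 lies at 1.25 and -0.84, Kcnip2 at the bottom at -4.83 on the y axis, and Kcnk3 and Kcnj8 left of 0 on both axes.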

How the data were processed

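The deposited values are expected counts per gene, which the authors made with RSEM 1.3.0 and STAR 2.5.2 on GRCm38, per the submitters' processing notes, which also name DESeq2 1.10.1. Reads were 75 bp single-end, per the labels' protocols. Expected counts were rounded to whole numbers, and 51719 of 51912 identifiers matched GENCODE M21. Tests used edgeR 4.0.16 (R 4.3.3): TMM scaling, its default low-count filter, 1 mean per group, the quasi-likelihood F test, and Benjamini-Hochberg adjustment over all genes tested. The sort and segment-by-sort tests used all 32 libraries, the others the 16 of 1 sort. The SE is the fold change divided by the square root of F. CPM were scaled over all 32 libraries, and levels per kilobase used the union of exons.

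Named genes were Kcnj6, Kcnd2, Kcnk9 and Kcnd3, up to 12 passing members per direction and comparison with the largest fold and at least 2 CPM, the highest members of each subfamily, and a list of well-known channels; others were named after their values were seen. The members and all lists were chosen with earlier results of these data known. Alternatives were DESeq2 1.42.0, limma-voom (limma 3.58.1), RLE size factors, no filter, a replicate block, all 32 libraries in 1 fit, and leaving out libraries. The scripts were tested on simulated data. Some members are counted but not reported here by name, in the text or the figures.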

Additional observations from a re-analysis of the deposited data

Results flagged for a closer look

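In 15 of the members named above, each of the 120 groups of 4 was searched for an outlying library. Its gap to the nearest other, as a share of the group's range, had to exceed Dixon's 95% critical value. 17 groups held such a library. Dixon's value holds for normally distributed values, so its rate of 1 in 20 does not apply to groups near 0 CPM. Where only 1 library of a group had a count, as for Kcnj8 in Bern_ColPos, it was flagged by rule. Groups with no count in any library could not be flagged. Bern_ColNeg 2 was high for Kcnk9 (11.9 CPM, others 0 to 0.341), and Bern_ColNeg 1 for Kcnc1 (79.1 CPM, others 1.82 to 9.50). These were also the Neg libraries with the highest neuronal marker sums (1261 and 1410 CPM), and the part of such transcripts was not tested. Bern_SiNeg 1, with the highest neuronal sum of its group (726 CPM), was high for Kcnc1 (42.0 CPM, others 0 to 1.79).

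Other high libraries were Bern_ColNeg 3 for Kcnd3 (198.9 CPM), Bern_ColNeg 4 for Kcnj11 (4.78), Bern_SiNeg 2 for Kcnip4 (9.90) and Kcnh4 (0.396), Bern_SiNeg 3 for Kcnj11 (0.884), and Crick_SiNeg 4 for Kcng3 (53.15) and Kcnk3 (21.7). Among neuronal libraries Bern_ColPos 1 was high for Kcnmb1 (14.9 CPM), Bern_ColPos 2 for Kcnc1 (358.4), Bern_ColPos 4 for Kcnj8 (0.518) and Kcnip2 (5.18), Bern_SiPos 1 for Kcnh4 (27.65), and Crick_SiPos 2 for Kcnk9 (1.33). Crick_ColPos 4 was low for Kcnd3 (95.65 CPM, others 145.9 to 153.9).

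The colon-to-SI difference was tested between the sorts with edgeR, and 10 members differed. Among them, the neuronal less the non-neuronal log2 difference was 2.05 for Kcnn3 and 1.44 for Kcnd3. It was -4.05 for Kcnf1, -4.04 for Kcnk1, -3.74 for Kcns3, -3.22 for Kcnj3, -3.18 for Kcnc4, -2.73 for Kcnh1 and -1.78 for Kcnq3. Of 32 fits that each left out 1 library, 26 lost the call of Kcnk1, 23 that of Kcnh1 and 19 that of Kcnd3.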

How the results depend on the processing

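Counts of members that passed are given here for alternatives that moved them by more than 1.5 times, and the cause was not tested. For segment by sort (10), DESeq2 gave 21. For colon against SI in neuronal nuclei (10) the replicate block gave 6, and at the Crick alone (3) DESeq2 and limma-voom gave 5. For Bern against Crick in colon neuronal nuclei (4), DESeq2 gave 8, the replicate block 1 and all 32 libraries in 1 fit 0. In SI (1) they gave 2, 0 and 0, limma-voom 2, no filter 4, and the fit without the 6 libraries in doubt 0. For colon against SI in non-neuronal nuclei (14), DESeq2 gave 23, all 32 libraries in 1 fit 26, and the fit without the 6 libraries 6. For Bern against Crick there (3), DESeq2 gave 11, limma-voom 13, no filter 16 and all 32 libraries in 1 fit 19. The sort count (58) lay between 56 and 62 in all of these. RLE size factors shifted the median of all genes in the sort comparison by -0.10 (log2).

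Leaving out 1 library gave 56 to 59 for the sort comparison, 6 to 15 for segment by sort (15 without Bern_ColNeg 3), 6 to 11 for colon against SI in neuronal nuclei, 2 to 4 in Bern and 2 to 3 at the Crick, 0 to 5 and 0 to 2 for the facilities in colon and SI, 8 to 20 for colon against SI in non-neuronal nuclei (20 without Bern_SiNeg 4, 8 without Crick_ColNeg 1 or 3) and 2 to 10 for the facilities there (10 without Bern_SiNeg 4). The lowest of the neuronal segment counts came without Crick_ColPos 1, Crick_ColPos 3, Crick_SiPos 1 or Crick_SiPos 4, and the 0 for colon between facilities without Crick_ColPos 1 or 2. No member's call changed sign in any alternative run. Deviations of same-numbered Pos and Neg libraries correlated positively in all pairs (0.00082 to 0.0464 in Bern, 0.073 to 0.525 at the Crick), and 4 of 4 Bern colon numbers and 3 of 4 in each other stratum matched best with themselves. That is a hint from the data, not the design. Every pair was over 0.1 for Crick SI only and the labels do not say what a number shares, so the numbers were not taken as pairing. The replicate block gave 57 for the sort comparison. Members of a few CPM, such as Kcnk9, Kcnj11 and Kcnj8 in neuronal nuclei, rest on few counts.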
